A study of Homo sapiens with 3 samples.

Results

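The genes described here were 10 microRNA genes and microRNA host genes known for their links to RUNX2 or p53, out of 64449 genes in the annotation. They were MIR23A, MIR27A, MIR24-2, MIR34A, MIR34B, MIR34C, MIR17HG, MIR21, MIR31HG and MIR22HG, and they lay at 7 loci. They were chosen by name and not by any measured value, though earlier results of these data were known at the time. Each gene was given every RUNX2 and CBFB peak whose edge lay within 25 kb of its annotated body. SAOS2 cells, a human osteosarcoma cell line without p53, had been subjected to chromatin immunoprecipitation followed by deep sequencing (ChIP-seq). The RUNX2 library was made with a custom antibody, the CBFB library with an antibody from Bethyl, and the input library, which was not analysed here, without antibody. All came from untreated cells of fewer than 20 passages, with 1 library each, so no peak has a replicate and no p-value is given. Peak lists were used for the RUNX2 and CBFB libraries, with 9941 and 27246 peaks, and the lists hold no read counts, so the depth behind a peak is unknown. The lists carry no expression values, so neither the p53 state of the line nor the level of any microRNA was checked.

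A microRNA is cut from a hairpin in a longer primary transcript and pairs with messenger RNAs through its seed, bases 2 to 8, which lowers their translation or stability. RUNX2 is the transcription factor that drives osteoblast differentiation, and CBFB is the partner that strengthens DNA binding by RUNX proteins without touching DNA itself. The miR-23a cluster is known from osteoblasts as a gene held down by RUNX2, the miR-34 genes are classical targets activated by p53, and miR-34c is known to target RUNX2. miR-21 and the miR-17/92a cluster are known as oncogenic microRNAs, and miR-31 and miR-22 have been described as regulators of growth and of osteogenic differentiation.

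Mature products of the loci are shown first because they define what each locus makes, with the seed in capitals (sequences from RefSeq, GRCh38.p14). The selection is partial. For MIR17HG only miR-17-5p and miR-20a-5p are printed, without the products of its miR-18a, miR-19a, miR-19b-1 and miR-92a-1 hairpins. For MIR34C the product shown is miR-34c-3p, the minor arm, and miR-34c-5p, the main arm, was not analysed here. The genes with a RUNX2 peak within 25 kb are the miR-23a cluster, MIR34A, MIR21 and MIR22HG, which give these products:
hsa-miR-23a-3p: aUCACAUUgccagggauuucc
hsa-miR-27a-3p: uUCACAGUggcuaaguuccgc
hsa-miR-24-3p: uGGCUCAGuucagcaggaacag
hsa-miR-34a-5p: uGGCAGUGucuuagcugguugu
hsa-miR-21-5p: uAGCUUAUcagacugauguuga
hsa-miR-22-3p: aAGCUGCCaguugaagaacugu
The genes with a CBFB peak and no RUNX2 peak, or with neither, give these products:
hsa-miR-34b-5p: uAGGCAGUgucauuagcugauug
hsa-miR-34c-3p: aAUCACUAaccacacggccagg
hsa-miR-31-5p: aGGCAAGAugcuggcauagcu
hsa-miR-17-5p: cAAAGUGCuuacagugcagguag
hsa-miR-20a-5p: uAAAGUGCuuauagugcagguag
miR-17-5p and miR-20a-5p have the same seed, and the seeds of miR-34a-5p and miR-34b-5p both hold GGCAGU, shifted by 1 base. No other pair of the products printed here shares its whole seed. Among products not printed, miR-19a-3p and miR-19b-3p share a seed, as do miR-19a-5p and miR-19b-1-5p.

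A RUNX2 peak lay within 25 kb of 6 of the 10 genes, at 4 of the 7 loci, and a CBFB peak lay within 25 kb of 9 genes, at 6 loci. The 6 genes with both were MIR23A, MIR27A, MIR24-2, MIR34A, MIR21 and MIR22HG. MIR34B, MIR34C and MIR31HG had a CBFB peak only, and MIR17HG had none of either kind. For comparison, 24.9% of all 64449 annotated genes, 19.6% of the 3049 annotated miRNA genes and 38.7% of the 683 host lncRNA genes had a RUNX2 peak within 25 kb. The corresponding shares for CBFB were 46.0%, 36.8% and 61.5%. The 3 genes of the miR-23a cluster share their peaks, as do MIR34B and MIR34C, so the 10 genes are not 10 independent observations and the counts are descriptions. In all, 5 RUNX2 peaks and 11 CBFB peaks were assigned.

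**Figure D1:**
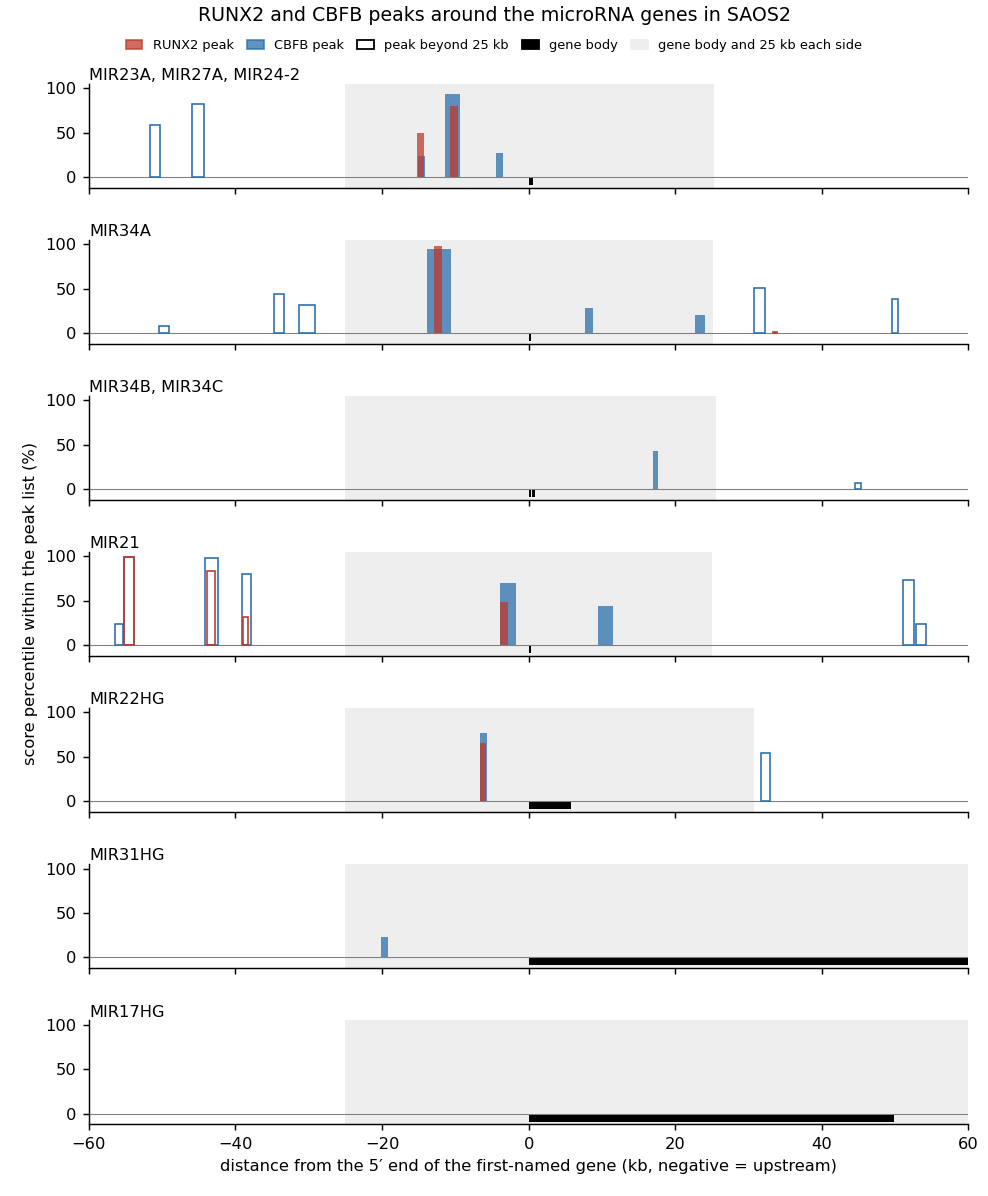
Peaks around each locus, with the distance in kb from the 5′ end of the gene named first on the horizontal axis and the score percentile of the peak within its own list on the vertical axis. Filled bars are peaks within 25 kb of a gene body, open bars are peaks from 25 to 60 kb away, and bar width is peak width; all 5 filled RUNX2 bars lie upstream of their gene, and the MIR17HG panel is empty.

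The shares depended on the reach. Within 5 kb, only MIR21 had a RUNX2 peak, against 6.07% of miRNA genes, and 4 genes had a CBFB peak, against 14.2%. At this reach the RUNX2 and CBFB shares were 13.7% and 28.1% for all genes. For host lncRNA genes they were 28.7% and 51.5%, above those of the 10 genes. Within 10 kb, 5 genes had a RUNX2 peak (10.2% of miRNA genes) and 6 had a CBFB peak (21.7%). At 50 kb and at 100 kb the counts stayed at 6 and 9, while the share of miRNA genes rose to 44.8% for RUNX2 and 65.5% for CBFB at 100 kb. The 4 genes without a RUNX2 peak thus had none within 100 kb. Shares at 100 kb were 48.6% and 71.0% for all genes, and 53.4% and 78.0% for host lncRNA genes.

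**Figure D2:**
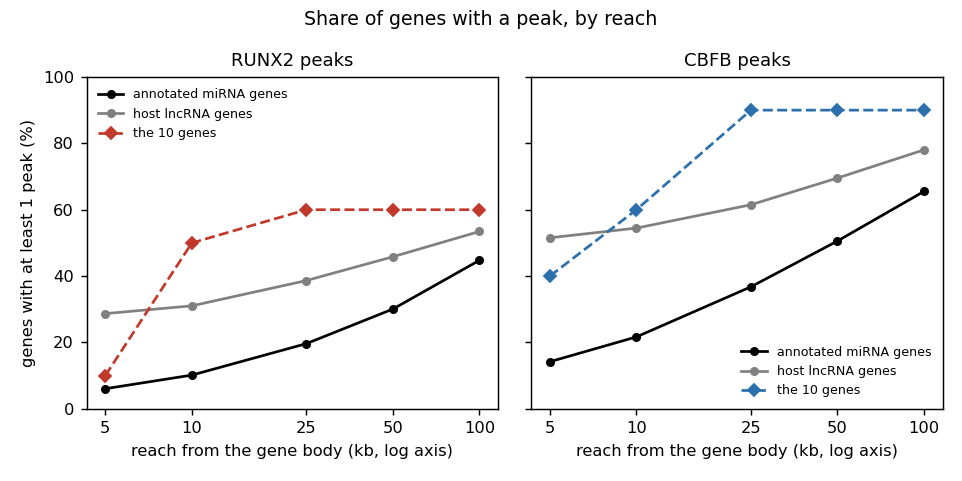
Share of genes (%) with at least 1 RUNX2 peak (left) or CBFB peak (right) against the reach from the gene body in kb on a log axis. Diamonds are the 10 genes, which reach 60% for RUNX2 and 90% for CBFB at 25 kb and stay there, and circles are annotated miRNA genes (black) and host lncRNA genes (grey).

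MIR34A, the member of the miR-34 family that is most widely expressed in human tissues, carried the highest-ranked RUNX2 peak of the group. The hairpin lies on the minus strand at chr1:9211727-9211836 (hg19, as all coordinates below unless stated), inside MIR34AHG. The RUNX2 peak at chr1:9223672-9224676 was 1005 bp wide and lay 11.836 kb upstream of the hairpin, in an intron of MIR34AHG. Its score was 369.48, where the score is the peak caller's measure of confidence in a peak and can be ranked only within its own list. That put it at rank 231 of 9941, percentile 97.7. The annotated transcript start nearest to the peak midpoint, 1170 bp away, belonged to a gene other than MIR34AHG. The start of the MIR34AHG transcript that spans the hairpin lay 17.775 kb from the peak. Of the 599 miRNA genes with a RUNX2 peak within 25 kb, 17 (2.84%), MIR34A included, had a best peak ranked as high.

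The CBFB peak at the same place, chr1:9222356-9225761, was the widest of the 11 at 3406 bp and enclosed the RUNX2 peak. It scored 659.68, rank 1455 of 27246 or percentile 94.7, and the midpoints of the pair were 116 bp apart. A best CBFB peak this high was found at 124 of the 1121 miRNA genes with one. The centre of the RUNX2 peak is shown because an AP-1 motif, TGANTCA (capitals), lay exactly on its midpoint and no RUNX core, TGTGGT or its complement ACCACA, lay within 100 bp of it:
MIR34A RUNX2 peak centre, chr1:9224074-9224274, plus strand: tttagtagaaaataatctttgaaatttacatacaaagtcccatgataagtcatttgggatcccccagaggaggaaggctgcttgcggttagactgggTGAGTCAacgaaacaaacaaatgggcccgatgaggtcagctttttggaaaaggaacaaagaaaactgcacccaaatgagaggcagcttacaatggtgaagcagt
The only TGTGGT core in the RUNX2 peak lay 209 bp from the midpoint, and the wider CBFB peak held 4. A match to the looser form TGYGGT, where Y is C or T, did lie within 100 bp of the RUNX2 midpoint. It reads tgcggt in the sequence above, shortly before the AP-1 motif. The RUNX2 peak centre thus lacked the strict core only.

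MIR34A had 2 further CBFB peaks within 25 kb, both downstream and both without a RUNX2 peak. The nearer, at chr1:9203043-9204108, lay 7.619 kb away between genes, scored 79.15 and was at percentile 28.2. It held 2 RUNX cores, 20 and 88 bp from its midpoint, shown in capitals here as an example of a CBFB peak with cores at its centre and no RUNX2 peak:
MIR34A downstream CBFB peak centre, chr1:9203475-9203675, plus strand: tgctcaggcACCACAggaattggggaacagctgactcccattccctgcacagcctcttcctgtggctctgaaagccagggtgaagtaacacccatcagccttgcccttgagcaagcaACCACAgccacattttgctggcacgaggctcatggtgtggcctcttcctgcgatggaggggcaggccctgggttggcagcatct
The farther, at chr1:9187820-9189184, lay 22.543 kb away, 338 bp past a start of GPR157, a gene for an orphan receptor. It was at percentile 20.8 and was the only assigned peak of either list without a RUNX core.

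The annotated start of the MIR34AHG transcript that spans the hairpin, at position 9242451 of chromosome 1, lay outside the 25 kb reach but inside a CBFB peak. That peak, chr1:9241007-9243139, was 29.171 kb from the hairpin, scored 84.58 and was at percentile 31.9. No RUNX2 peak overlapped it, the nearest being 16.331 kb away. It was looked at because of the transcript start, after the values above were known. It held no RUNX core but 1 match to the full p53 consensus, a pair of 10-base elements with a spacer of 0 to 13 bases, 229 bp after the transcript start. Such a match was present in 0.180% of all CBFB peaks and in 0.212% of all RUNX2 peaks, and in none of the 16 peaks assigned to the 10 genes. The match is printed on the strand of the gene, in capitals:
MIR34AHG p53 consensus match, chr1:9242198-9242227, minus strand: tgcctGGGCTTGCCTGGGCTTGTTCcgagc
It is a match of letters in a cell line that lacks p53, and its use was not tested. The RefSeq promoter of MIR34AHG lay in the same CBFB peak and is shown because it was the only host promoter among 7 that any peak overlapped:
MIR34AHG promoter, chr1:9242348-9242647, minus strand: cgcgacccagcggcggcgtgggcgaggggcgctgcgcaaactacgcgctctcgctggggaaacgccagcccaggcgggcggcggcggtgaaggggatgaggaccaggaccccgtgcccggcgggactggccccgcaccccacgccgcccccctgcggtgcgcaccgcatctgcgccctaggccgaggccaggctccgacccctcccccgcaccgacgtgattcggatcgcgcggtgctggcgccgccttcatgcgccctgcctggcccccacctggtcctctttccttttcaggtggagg
It held no RUNX core and no AP-1 motif, which occurred in 13.1% and 7.71% of the 35116 RefSeq promoters of this length.

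MIR34B and MIR34C, the other two miR-34 genes, lie together on the plus strand at chr11:111383663-111383746 and chr11:111384164-111384240 in MIR34BHG. They had no RUNX2 peak within 25 kb, and the nearest was 217.307 kb from MIR34C. Their CBFB peak at chr11:111400694-111401326 lay 16.454 kb downstream of MIR34C in an intron of HOATZ. At 633 bp it was the narrowest of the 11 CBFB peaks, and it scored 104.9, percentile 43.1. A RUNX core lay 14 bp from its midpoint (capitals):
MIR34B and MIR34C CBFB core, chr11:111400981-111401010, plus strand: ttactgcatagtTGTGGTggggaaaggagg
The miR-34 genes therefore differed in what was called near them, with a high-ranked RUNX2 and CBFB pair at MIR34A and a mid-ranked CBFB peak alone at MIR34B and MIR34C.

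The miR-23a cluster was the only locus with more than 1 RUNX2 peak. MIR23A (chr19:13947401-13947473), MIR27A (chr19:13947254-13947331) and MIR24-2 (chr19:13947101-13947173) lie within MIR23AHG on the minus strand. The stronger RUNX2 peak, chr19:13957135-13958229, lay 9.662 kb upstream of MIR23A with its midpoint 3940 bp upstream of the MIR23AHG start, between genes. It scored 142.67, rank 2025, percentile 79.6. The weaker, chr19:13961697-13962690, lay 14.224 kb upstream of MIR23A, also between genes, and scored 83.04, rank 5068, percentile 49.0. At least 2 RUNX2 peaks within 25 kb were found for 147 of the 3049 miRNA genes (4.82%).

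Each of these RUNX2 peaks overlapped a CBFB peak, and the CBFB scores of the pair lay far apart in their list. The CBFB peak at chr19:13956829-13958860 scored 591.83, percentile 93.6, and enclosed the stronger RUNX2 peak. The CBFB peak at chr19:13961562-13962581 scored 72.7, percentile 23.3, and shared 885 bp with the weaker one. The remaining CBFB peak of the cluster, chr19:13950973-13951857, lay 3.500 kb upstream of MIR23A in an exon of MIR23AHG, scored 77.61 at percentile 27.1, and overlapped no RUNX2 peak.

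The stronger RUNX2 peak at the miR-23a cluster was the only RUNX2 peak of the 5 with a RUNX core within 100 bp of its midpoint, at 50 bp (capitals). The weaker peak had 2 AP-1 motifs within 100 bp of its midpoint (capitals) and 4 in all, and its RUNX cores lay 236 and 413 bp away. The stronger peak also held 1 AP-1 motif, 247 bp from its midpoint. From the midpoint of its CBFB partner, that motif lay 85 bp and the core 212 bp away. The difference between the 2 RUNX2 peaks therefore depends on the midpoint used. Their centres are set side by side:
miR-23a cluster, stronger RUNX2 peak centre, chr19:13957582-13957782, plus strand: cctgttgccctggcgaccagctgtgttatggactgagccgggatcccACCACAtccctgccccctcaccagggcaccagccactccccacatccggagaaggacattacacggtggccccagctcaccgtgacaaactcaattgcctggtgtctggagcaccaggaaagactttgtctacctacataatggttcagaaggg
miR-23a cluster, weaker RUNX2 peak centre, chr19:13962093-13962293, plus strand: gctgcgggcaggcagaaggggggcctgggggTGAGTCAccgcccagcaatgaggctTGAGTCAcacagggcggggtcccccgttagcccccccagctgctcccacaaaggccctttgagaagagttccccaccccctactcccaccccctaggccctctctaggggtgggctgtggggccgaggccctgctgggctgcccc
The CBFB peak in the MIR23AHG exon had a RUNX core 13 bp from its midpoint.

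MIR21 had the RUNX2 peak nearest to its hairpin. The hairpin lies on the plus strand at chr17:57918627-57918698 at the 3′ end of VMP1, a gene for an autophagy protein, and the peak at chr17:57914783-57915885 lay 2.742 kb upstream. Its midpoint fell in an exon of VMP1, 22 bp from an annotated transcript start. Of the 10 VMP1 transcripts that span the hairpin, 2 start inside this peak, at positions 57915292 and 57915312. The peak scored 83.24, rank 5052, percentile 49.2, so its rank was near the middle of the list. Of the 599 miRNA genes with a RUNX2 peak, 337 had a best peak at least as high.

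The CBFB peak at MIR21, chr17:57914676-57916948, lay 1.679 kb upstream, scored 203.29 at percentile 70.6 and enclosed the RUNX2 peak. The midpoints of the pair were 478 bp apart, the widest gap of the 5 pairs. A pair of RUNX cores lay 399 and 421 bp from the RUNX2 midpoint but 79 and 57 bp from the CBFB midpoint. They are shown in capitals because the same cores were central in one peak and not in the other:
MIR21 RUNX core A, chr17:57915718-57915747, plus strand: ggcagaagcttcACCACAaaagcgaaatgg
MIR21 RUNX core B, chr17:57915740-57915769, plus strand: cgaaatgggcacACCACAggtaagacttta
A further CBFB peak without a RUNX2 peak, chr17:57928034-57930086, lay 9.336 kb downstream of MIR21 between genes, at percentile 44.2. It held 6 RUNX cores, the most of any assigned peak, the nearest 22 bp from its midpoint.

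The strongest peaks in the gene that contains MIR21 lay beyond its 25 kb reach. VMP1 held 6 RUNX2 peaks, and 5 of them had a CBFB partner. The highest, chr17:57863473-57864760, scored 641.28, rank 63 of 9941 or percentile 99.4, and lay 53.867 kb upstream of the hairpin. Its CBFB partner scored 1545.48, rank 186 of 27246, percentile 99.3. The next, 42.770 kb upstream, was at percentile 83.5, with a CBFB partner at percentile 98.4. The peak assigned to MIR21 was thus not the strongest RUNX2 peak of its host gene.

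MIR22HG, the host of miR-22, lies on the minus strand at chr17:1614741-1620468. Its RUNX2 peak, chr17:1626314-1627103, lay 5.846 kb upstream, scored 106.98, rank 3414, percentile 65.7, and at 790 bp was the narrowest of the 5. The midpoint fell in an intron of WDR81, 1126 bp upstream of a WDR81 transcript start, so WDR81 has the nearer start. The CBFB peak, chr17:1626100-1627139, enclosed it, scored 246.31, percentile 76.7, and had its midpoint 89 bp away, the closest of the 5 pairs. A pair of RUNX cores in opposite orientation lay 138 and 156 bp from the RUNX2 midpoint and 49 and 67 bp from the CBFB midpoint (capitals):
MIR22HG RUNX core A, chr17:1626537-1626566, plus strand: ctggaggctctgACCACAgctggcaggctc
MIR22HG RUNX core B, chr17:1626555-1626584, plus strand: gctggcaggctcTGTGGTaccgcagaggcc
MIR22HG was thus like MIR21 in having cores that were within 100 bp of the CBFB midpoint only.

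MIR31HG, the long host of miR-31, spans 179819 bp on the minus strand at chr9:21380072-21559890. The nearest RUNX2 peak was 506.880 kb away. Its CBFB peak, chr9:21579043-21579969, lay 19.153 kb upstream of the gene start, between genes, scored 72.05 and was at percentile 22.8. A RUNX core lay 109 bp from its midpoint. The miR-31 hairpin itself was 66859 bp from the nearest CBFB peak, so the assignment rests on the length of the host.

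MIR17HG, the host of the miR-17/92a cluster, lies on the plus strand at chr13:91999940-92049846 and was the only gene of the 10 without a peak in either list. The nearest RUNX2 peak was 329.543 kb away and the nearest CBFB peak 206.643 kb. The 6 hairpins of the cluster were 252844 to 253547 bp from the nearest CBFB peak. A missing peak means that none passed the caller's limit in 1 library, and does not show that the protein was absent.

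All 5 RUNX2 peaks overlapped a CBFB peak (100%, exact Clopper-Pearson 95% interval 47.8 to 100), and 94.2% of all RUNX2 peaks did. The paper gives a lower share of all RUNX2 peaks overlapping CBFB peaks, and the reason for the difference was not tested. In 4 of the 5 assigned pairs the RUNX2 peak lay wholly inside the CBFB peak, and in 4 the midpoints were within 200 bp. Among the 11 CBFB peaks, overlap with RUNX2 was found for 5 (45.5%, interval 16.7 to 76.6), and 33.8% of all CBFB peaks did. The intervals cover counting error only. Both shares over all peaks lay inside these intervals, so no difference from the lists at large was detectable with so few peaks.

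The 5 CBFB peaks that overlapped RUNX2 had score percentiles from 23.3 to 94.7 with a median of 76.7, and the 6 that did not ranged from 20.8 to 44.2 with a median of 27.7. The groups overlapped in range only through the CBFB peak of the weaker miR-23a pair. The same split over all CBFB peaks was not computed, so the difference cannot be read as a trait of these loci. Over all assigned peaks the median percentile was 65.7 for RUNX2 (49.0 to 97.7) and 43.1 for CBFB (20.8 to 94.7), where a list at large has 50 by construction. With 5 and 11 peaks these medians are descriptions.

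**Figure D3:**
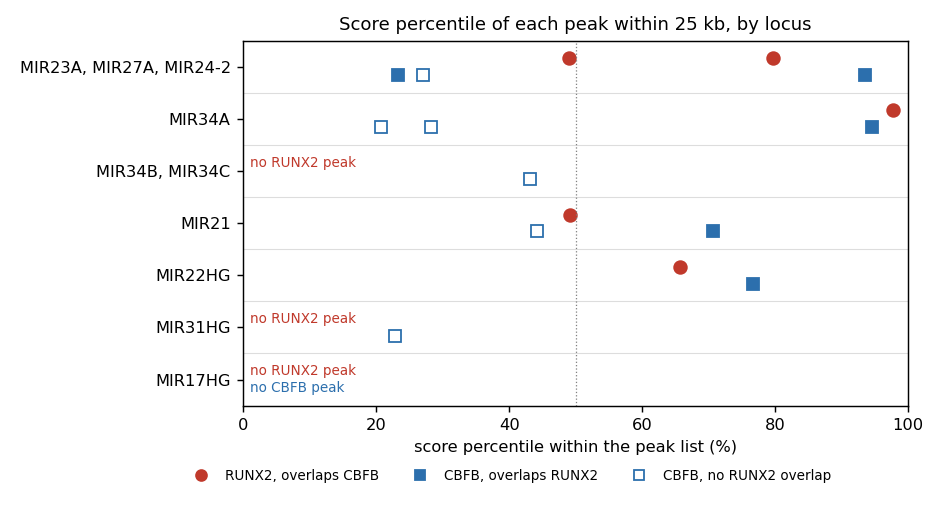
Score percentile (%) of each assigned peak within its own list, by locus, with circles for RUNX2, filled squares for CBFB peaks that overlap RUNX2 and open squares for those that do not. RUNX2 peaks run from 49.0 at the miR-23a cluster to 97.7 at MIR34A, and the open squares all lie below 45; the dotted line marks 50.

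By position, all 5 RUNX2 peaks lay upstream of the gene, as did 7 of the 11 CBFB peaks, and the other 4 CBFB peaks lay downstream. The midpoint fell within 1 kb of an annotated transcript start for 1 RUNX2 peak, that of MIR21, and for 2 CBFB peaks. It fell within 5 kb of one for 4 of the 5 RUNX2 peaks and 8 of the 11 CBFB peaks. Of the RUNX2 peaks, 3 had their midpoint in a gene and 2 between genes, and of the CBFB peaks 6 were in a gene and 5 between genes. Shares over all peaks of the lists were not computed for these positions. The counts are therefore descriptions and cannot be read as traits of these loci.

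RUNX cores were counted near the midpoint and anywhere in the peak. A core lay within 100 bp of the midpoint in 1 of 5 RUNX2 peaks (20%, interval 0.505 to 71.6), against 43.2% of all RUNX2 peaks, and in 6 of 11 CBFB peaks (54.5%, interval 23.4 to 83.3), against 41.6% of all CBFB peaks. The looser form TGYGGT lay there in 2 of 5 RUNX2 peaks (53.3% of all) and 6 of 11 CBFB peaks (49.4% of all). These RUNX2 peaks were that of MIR34A and the stronger one of the miR-23a cluster. All 5 RUNX2 peaks and 10 of 11 CBFB peaks held a TGTGGT core somewhere, as did 78.1% and 80.9% of the lists. For the central TGTGGT cores both list shares lay inside the counting intervals, so no difference from the lists was detectable. No interval was computed for TGYGGT or for cores anywhere in the peak, and no difference is claimed there. Of the CBFB peaks without RUNX2 overlap, 4 of 6 had a core within 100 bp, and of those with overlap 2 of 5 did. The midpoint of a peak need not be where enrichment was highest, and the lists give no summit.

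AP-1 motifs, which are bound by FOS and JUN proteins, were present in 4 of 5 RUNX2 peaks, all but that of MIR21, and in 6 of 11 CBFB peaks. The lists at large held one in 37.9% and 42.1% of peaks. Within 100 bp of the midpoint they lay in 2 of 5 RUNX2 peaks (13.1% of all) and 3 of 11 CBFB peaks (11.9% of all). The RUNX2 peaks were that of MIR34A and the weaker one of the miR-23a cluster. The CBFB peaks were all at the miR-23a cluster, and the AP-1 motif in the MIR34A CBFB peak lay 116 bp from its midpoint. The E-box CACGTG was found in 1 RUNX2 peak and 3 CBFB peaks, against 14.1% and 17.7% of the lists. No interval was computed for the AP-1 and E-box counts, so no difference from the lists is claimed. Where a CBFB peak overlaps a RUNX2 peak, the same AP-1 letters can be counted in both. All motifs were read on both strands, and a match is a description of the letters only.

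**Figure D4:**
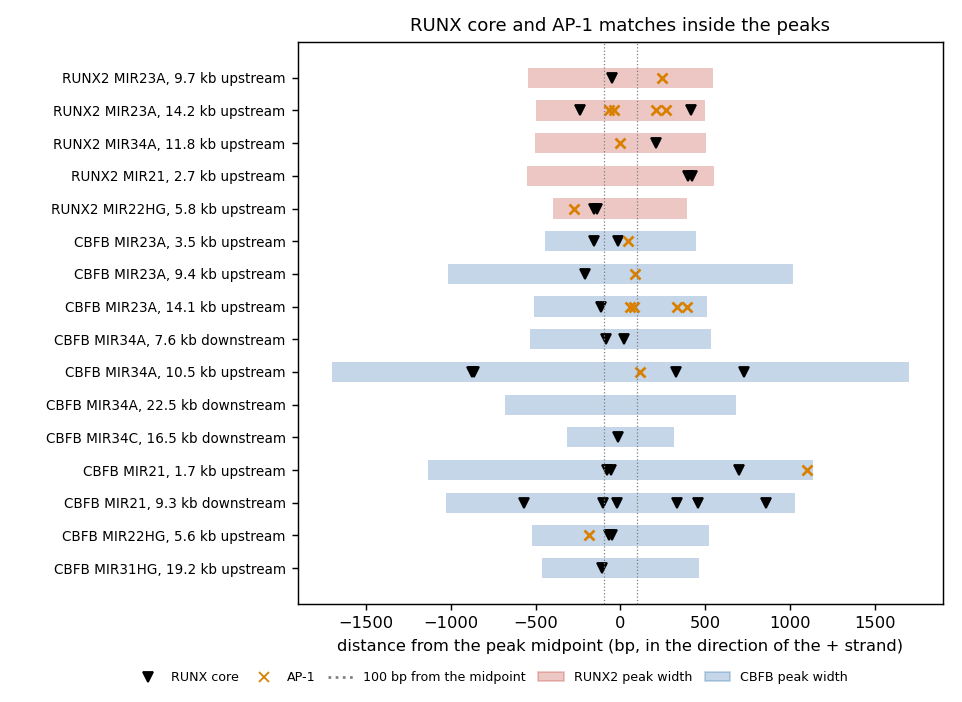
Position of RUNX cores (triangles) and AP-1 motifs (crosses) in the 16 assigned peaks, in bp from the peak midpoint along the plus strand. Bars are peak widths (red for RUNX2, blue for CBFB), dotted lines mark 100 bp either side, and in the RUNX2 peaks only that 9.7 kb upstream of MIR23A has a triangle between them.

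Other microRNA genes of the same pathways were described by lists drawn up by name, with earlier results of these data known. The counts are to be read against the 19.6% and 36.8% of all miRNA genes with a RUNX2 and a CBFB peak within 25 kb. Of 14 genes for microRNAs reported to target RUNX2, 2 had a RUNX2 peak (14.3%) and 6 a CBFB peak (42.9%). The RUNX2 peaks were at MIR338 (percentile 72.7) and MIR218-1 (percentile 33.2). Of 12 further genes linked to p53, 4 had a RUNX2 peak (33.3%) and 8 a CBFB peak (66.7%). These 4 rest on 2 peaks, one shared by MIR200C and MIR141 (percentile 85.5) and the other by MIR192 and MIR194-2 (percentile 51.1). Of 16 listed genes for microRNAs of osteoblasts, 15 were placed and 3 of these had a RUNX2 peak (20%), namely MIR3960 (percentile 45.0), MIR140 (percentile 17.5) and MIR206 (percentile 6.19), and 8 had a CBFB peak (53.3%). The genes are few and several share peaks, so these counts are descriptions. No gene of the 3 lists had a RUNX2 peak ranked as high as that of MIR34A. The hairpins of the miR-17/92a cluster and MIR31, 7 in all, had no peak of either kind within 25 kb.

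By number of RUNX2 peaks within 25 kb, the miRNA genes with the most were MIR661 with 7, MIR4740, AL359815.1 and MIR3619 with 6 each, and MIR1208 with 5. The 147 miRNA genes with at least 2 include MIR23A and MIR27A.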

How the data were processed

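ChIP-seq libraries of RUNX2, CBFB and input DNA (1 each) were made from SAOS2 cells. Per the labels, the submitters' processing notes name CASAVA 1.8.2, MACS 1.4.1 and hg19. The aligner, the calling limit and the use of the input are not given in the sources used here. The authors called peaks with MACS, and the deposited lists give position and a score (50 to 3100), read here as -10 times log10 of the p-value from the names of the peaks and the range of values. A score depends on depth, so it was ranked within its list only, and the percentile is the share of the list with a score at or below it. Coordinates are counted from 1.

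Gene bodies were those of GENCODE release 44 lifted to GRCh37. MIR24-2 and the hairpins of the miR-17/92a cluster were placed by the only exact match of the RefSeq hairpin to GRCh37, and 14 of 15 member hairpins were placed (MIR22 was not). All 10 genes were named, with every peak within 25 kb, the nearest peak where there was none, and the host transcript. From each comparison list up to 5 genes were named by their best RUNX2 percentile, and among all miRNA genes the 5 with the most RUNX2 peaks. Genes and lists were chosen with earlier results of these data known. Overlap meant at least 1 bp. Motifs were searched in the whole peak and within 100 bp of the midpoint (201 bp). Shares of overlap and of central RUNX cores carry exact Clopper-Pearson 95% intervals, and no test was run because each antibody had 1 library. Distance, counting and motif functions were checked on simulated data. Python 3.11.15, pandas 2.3.3, numpy 2.4.6, scipy 1.17.1 and pysam 0.24.0 were used. Alternatives changed the reach, the gene body, the score limit, the overlap rule and the motif. The sequence around 1 motif match is not reported here.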

Additional observations from a re-analysis of the deposited data

How the results depend on the processing

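Of 42 alternative values for 10 results, 22 moved little (counts within 1.5 times, shares inside the exact interval, percentiles within 10 points) and 20 moved more. With a reach of 5 kb, 1 gene had a RUNX2 peak (1 peak) and 4 genes had a CBFB peak (2 peaks), and the median RUNX2 percentile was 49.2. With 50 kb there were 8 RUNX2 and 21 CBFB peaks, and with the body of the host transcript 10 and 21. The counts of genes stayed at 6 and 9 in both. Peaks at or above the median score left 3 RUNX2 and 4 CBFB peaks, at 5 genes (without MIR21) and 6 genes. With as many top CBFB peaks as RUNX2 peaks, 4 CBFB peaks at 6 genes stayed, at a median percentile of 85.1, 100% of them overlapped RUNX2 and 2 had a central core. In both, MIR34B, MIR34C and MIR31HG lost their only peak. A RUNX core anywhere in the peak gave 5 RUNX2 and 10 CBFB peaks, TGYGGT gave 2 RUNX2 peaks, and TGTGGTT gave 0 and 1. The overlap of RUNX2 with CBFB peaks was 60% when each had to cover 50% of the other and 80% with midpoints within 200 bp. No paired analysis was possible because there was 1 library for each antibody. The lists give neither depth nor summits, so a weak or missing peak at MIR17HG, MIR31HG, MIR34B or MIR34C is limited by an unknown depth, and central motifs depend on the midpoint.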

Other observations

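The products of these loci were also read against the 3′ untranslated regions of RUNX2 and CBFB in the reference, which uses none of the ChIP-seq values. The 27 mature sequences searched do not include miR-34c-5p, miR-21-3p and miR-31-3p, which were not analysed here. Of the 27, 14 had at least 1 match to the 7-base complement of their seed in the 3777-base 3′ untranslated region of RUNX2, and 3 had one in the 2280 bases of CBFB. Across the 27, the share of genes with a match in a region of the RUNX2 length ran from 12.3% to 47.6%. For the CBFB length it ran from 7.33% to 33.0%. miR-22-3p had 3 matches in RUNX2, while 27.8% of 2403 genes had at least 1 in a region of that length. miR-19a-5p and miR-19b-1-5p, which share a seed, also had 3 (at least 1 in 625 of the 2403 genes). miR-20a-3p had 2 matches (31.8% of genes). miR-17-5p and miR-20a-5p, which share a seed, had 1 (47.6%), as did miR-19a-3p and miR-19b-3p (29.2%). miR-34a-5p and miR-34b-5p each had 1 match, at overlapping positions, with 27.8% and 27.0% of genes having one. miR-34b-3p and miR-34c-3p each had 1 match at another place, where they overlap (38.5% and 20.8% of genes). miR-23a-3p and miR-23a-5p had 1 match each (37.2% and 13.6% of genes), and miR-21-5p, miR-24-3p, miR-27a-3p and miR-31-5p had none. In CBFB the matches were those of miR-19a-3p and miR-19b-3p, which share a seed (20.0% of 5140 genes), and of miR-27a-3p (22.1%). The RUNX2 matches of miR-34a-5p and miR-23a-3p are shown as examples from the 2 loci with the highest-ranked RUNX2 peaks, with the match in capitals (GRCh37):
miR-34a-5p match in RUNX2, chr6:45518067-45518096, plus strand: ttagacggtctCACTGCCtctcacttgcca
miR-23a-3p match in RUNX2, chr6:45516092-45516121, plus strand: catccaggcacAATGTGAttttaaaaaata
Matches of this kind are frequent in long untranslated regions, and none was tested for function.

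Just outside the 25 kb limit, 4 RUNX2 and 15 CBFB peaks lay from 25 to 60 kb away from a gene of the 10. The nearest were a CBFB peak 26.009 kb from MIR22HG (percentile 54.5) and, for RUNX2, a peak 33.281 kb from MIR34A with a score of 50.37 (percentile 1.13). Just inside the limit was the CBFB peak 22.543 kb from MIR34A.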
